A study of Homo sapiens with 7 samples.

Results

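The expression of 33 NRF2 and antioxidant defence genes was followed in HEK-293 cells kept in acidic medium or treated with the kinase inhibitor SRPIN340. The genes were taken by name, with no measured value in the rule, and comprise NRF factors with their partners and genes of glutathione, thioredoxin, peroxiredoxin, pentose phosphate and iron metabolism. All 33 were found among the 19978 genes of the table, and all 33 were among the 14863 genes with enough counts to be tested. In acidosis the system did not move as 1 block. The message of KEAP1, the repressor of NRF2, fell 3.78-fold and that of the NRF2 partner MAFG rose 11.7-fold. Among inducible enzymes and glutathione synthesis and recycling genes, GCLM, GSR, SRXN1 and NQO1 were called lower, HMOX1 and GCLC fell under the fold limit, GSS did not pass and OSGIN1 rose. Both ferritin chains rose. The selenium glutathione peroxidases GPX1 and GPX4 rose, and so did the peroxiredoxins, of which PRDX1 and PRDX2 did not pass with libraries scaled by totals alone. With SRPIN340 none of the 33 passed edgeR's test as fitted here, while DESeq2 passed 4 of them under the fold limit.

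HEK-293 is an established line derived from human embryonic kidney. Each of the 3 groups was incubated for 48 h. Control cells (2 samples) stayed at pH 7.4 with DMSO, acidosis cells (3 samples) were given DMEM titrated to pH 6.6 and the same DMSO, and SRPIN340 cells (2 samples) stayed at pH 7.4 with 10 µM of the inhibitor and, per the study's methods, the same DMSO. SRPIN340 blocks kinases that phosphorylate SR splicing factors. The study placed the inhibitor beside acidosis to compare acid stress with reduced phosphorylation of these factors, and no group received both. The samples are biological repeats of a single cell line, and the tests measure the spread between these repeats.

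Library totals ran from 13615816 to 24110460 estimated counts, and 2 of the 3 acidosis libraries were the shallowest. Acidosis libraries were also the most concentrated, with 24.1% to 24.8% of counts in their 100 most abundant genes against 15.2% to 15.4% elsewhere. This set how the samples were scaled. Values are given below as CPM (counts scaled to a common library size) after TMM scaling, which aligns the bulk of genes between samples. When libraries were scaled by their totals alone, the median log2 fold change of all tested genes in acidosis moved from -0.05 to -0.63, so every change in acidosis is relative to the typical gene. All 8 genes chosen as HEK-293 features were above 1 CPM in every sample, with a summed level of 1180 to 1240 CPM in control and 3150 to 3200 CPM in acidosis that came mostly from VIM, and 5 of 7 genes of mature kidney tubule and 5 of 6 of blood and endothelium stayed under 1 CPM throughout. The summed level of 6 fibroblast genes was 42.1 to 43.0 CPM in control and 82.1 to 95.6 CPM in acidosis. Mean COL1A1 went from 30.8 to 62.3 CPM and LUM from 7.71 to 24.4 CPM, while COL3A1 went from 3.09 to 1.56 CPM. Among the HEK-293 features mean VIM went from 867 to 2710 CPM, while PAX2 went from 6.78 to 1.82 CPM and INA from 28.8 to 17.7 CPM. The part of either list in the results was not tested. RNA came from whole cultures, so fewer cells with a transcript and less transcript per cell cannot be told apart.

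NRF2, encoded by NFE2L2, is a transcription factor that responds to oxidants and electrophiles. KEAP1 holds it in the cytoplasm and presents it to a CUL3 ubiquitin ligase for destruction, and modification of KEAP1 cysteines releases it. NRF2 then pairs with a small MAF protein on antioxidant response elements (AREs), and BACH1 competes for the same sites. Its targets make glutathione, recycle thioredoxin and glutathione, supply NADPH and store iron. The main control of NRF2 acts on protein stability, which these RNA data do not measure.

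A gene was called when the quasi-likelihood test of edgeR gave it an adjusted p (Benjamini-Hochberg) under 0.05 and its log2 fold change was over 1 in either direction. In acidosis against control 19 of the 33 genes were called, 14 of them higher and 5 lower (with libraries scaled by totals alone 11, 3 higher and 8 lower). Over all tested genes 33.5% were called, 14.4% higher and 19.1% lower. Without the fold limit 30 of the 33 passed, 21 higher and 9 lower, where 66.7% of all genes did, 32.5% higher and 34.2% lower. The groups did not overlap for 30 of the 33, against 76.5% of all tested genes. The median log2 fold change was 0.61 over the 33 genes and -0.05 over all tested genes, and with libraries scaled by totals alone these medians were 0.03 and -0.63. The 3 genes that did not pass were GSS, TXNRD1 and TXNRD2. With totals alone the rises of TXN, PRDX3, PRDX4, PRDX6, GPX1, GPX4, GSTP1, SOD1, SOD2, TKT and FTH1 still passed but lay under the fold limit, at 0.46 (SOD1) to 0.96 (FTH1), and HMOX1 (-1.36), GCLC (-1.18) and CAT (-1.11) were called lower.

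**Figure D1:**
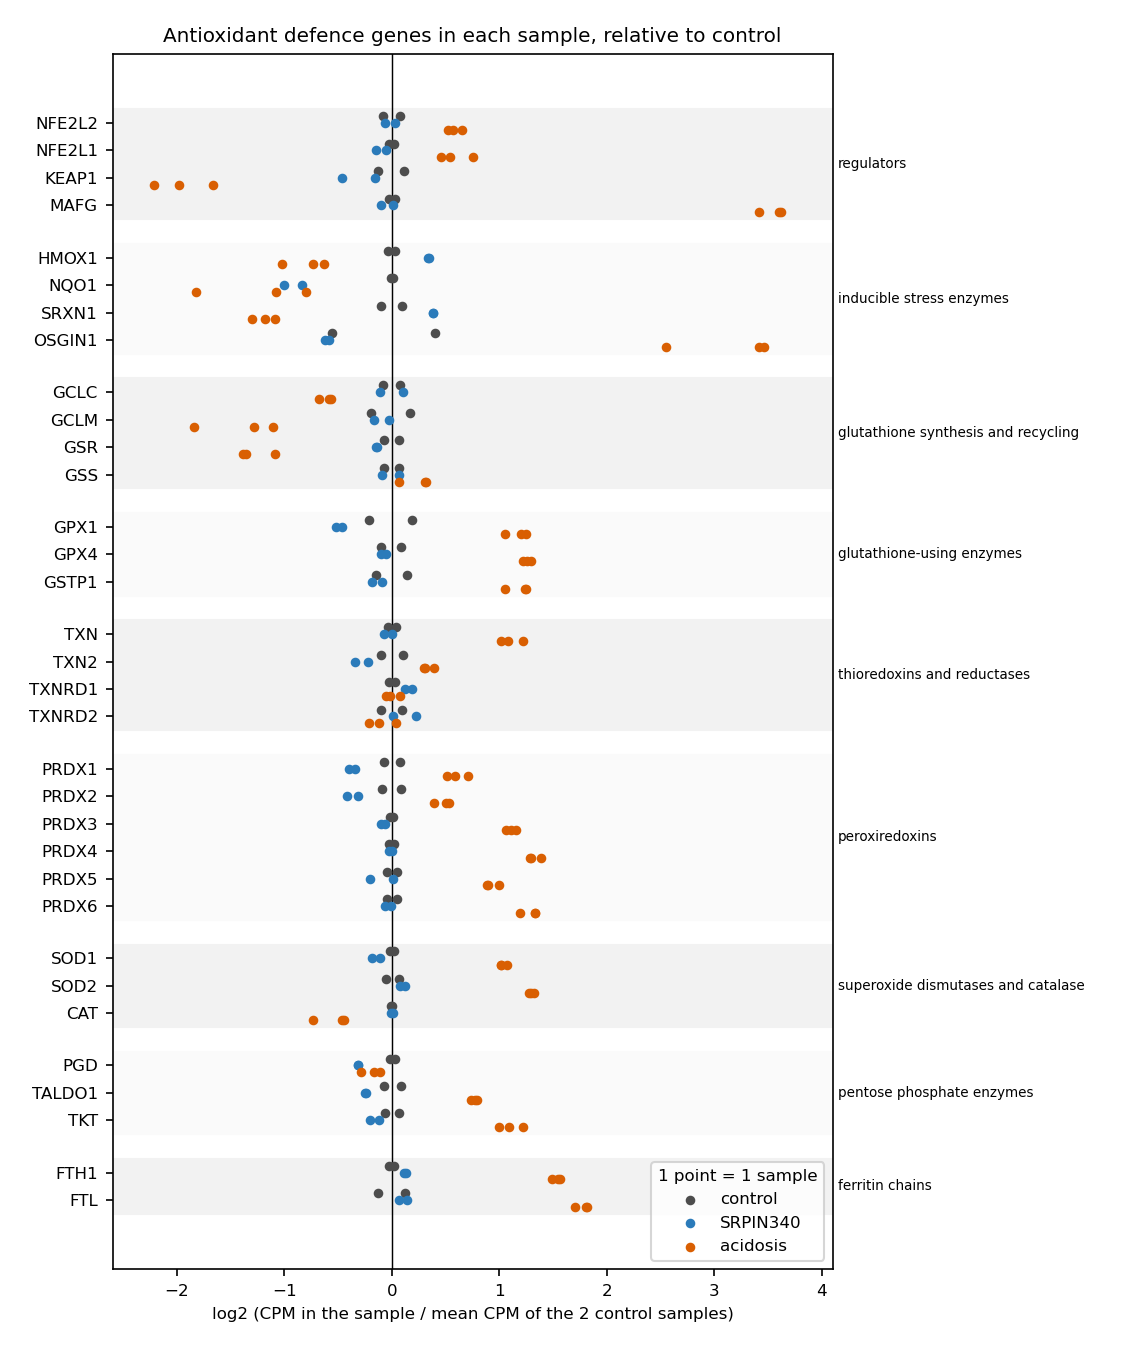
Level of each of the 33 genes in each sample, as log2 of its CPM over the mean CPM of the 2 control samples (horizontal axis), with genes on the vertical axis grouped by role. Each point is 1 sample. The acidosis points of MAFG and OSGIN1 lie far to the right and those of KEAP1, GCLM, GSR and SRXN1 to the left, while the SRPIN340 points stay near the control points for most genes.

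The regulators changed in opposite directions. NFE2L2 (ENSG00000116044.17, chromosome 2 of GRCh38, 177218667 to 177392756) was at 91.1 and 81.7 CPM in control, 82.4 and 88.3 CPM with SRPIN340 and 124, 136 and 128 CPM in acidosis. The acidosis samples all lay above the other 4, and their rise of 0.58 on the log2 scale (standard error 0.084, edgeR adjusted p = 1.80e-04) was under the fold limit. NFE2L1, which encodes the related factor NRF1 that drives proteasome and iron genes as well as some antioxidant genes, was at 245 and 237 CPM in control, 232 and 218 CPM with SRPIN340 and 331, 407 and 350 CPM in acidosis (log2 fold change 0.59, standard error 0.089, adjusted p = 2.45e-04). Scaled by library totals alone, both came to 0.01 and neither passed, so these rises are relative to the typical gene. NFE2L2 shares 3509 exonic bases with HNRNPA3 on the opposite strand, which was at a mean of 834 CPM in control and 976 CPM in acidosis.

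KEAP1 (ENSG00000079999.14, chromosome 19, 10486125 to 10503558) was at 56.5 and 67.0 CPM in control, 55.3 and 44.9 CPM with SRPIN340 and 19.5, 13.3 and 15.7 CPM in acidosis. Its fall was the largest among the 33 genes, at -1.92 on the log2 scale (standard error 0.163, edgeR adjusted p = 4.67e-06). MAFG (ENSG00000197063.11, chromosome 17, 81918270 to 81927735), a small MAF that has no activation domain of its own, went the other way. It stood at 42.0 and 43.6 CPM in control, 43.1 and 39.9 CPM with SRPIN340 and 525, 456 and 520 CPM in acidosis. The rise was 3.55 on the log2 scale (standard error 0.092, adjusted p = 5.33e-09). Both calls held under every alternative tried, and scaled by library totals alone the log2 fold changes were -2.49 and 2.97. MAFG shares 105 exonic bases with SIRT7 on the same strand, which was at a mean of 23 CPM in control and 29.7 CPM in acidosis.

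Ratios within a sample need no scaling between libraries. The ratio of NFE2L2 to KEAP1 estimated counts was 1.61 and 1.22 in control, 1.49 and 1.97 with SRPIN340 and 6.33, 10.2 and 8.12 in acidosis, a 5.75-fold higher geometric mean than in control. The ratio of MAFG to NFE2L2 was 7.79-fold higher in acidosis. Whether the deposited counts carry a correction for transcript length is not given in the sources used here, so only the change of a ratio between groups can be read.

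**Figure D2:**
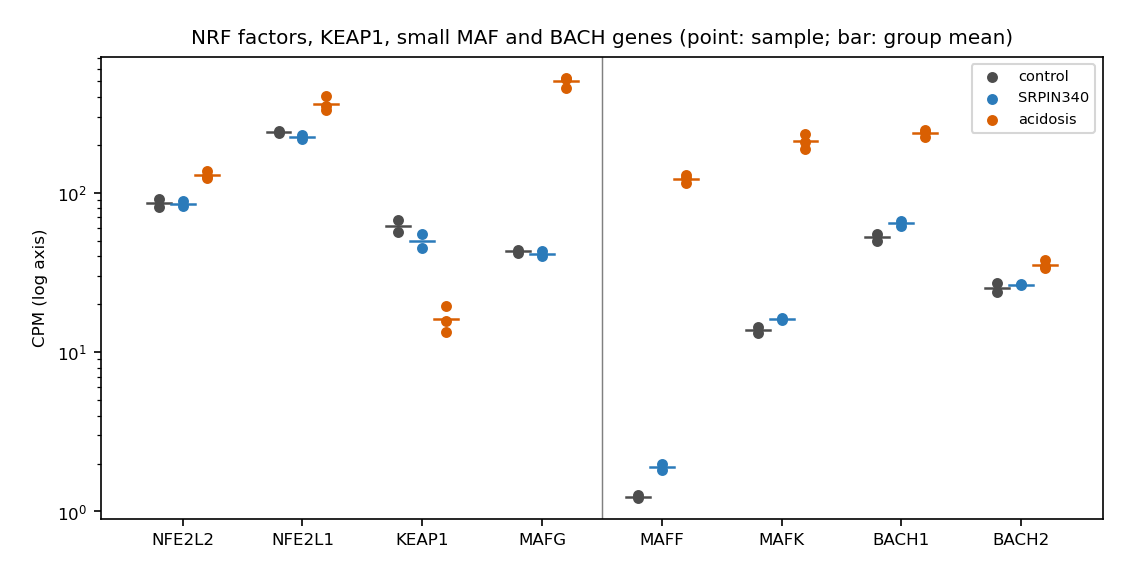
CPM (vertical log axis) of NFE2L2, NFE2L1, KEAP1 and MAFG, left of the line, and of MAFF, MAFK, BACH1 and BACH2 from the wider list, right of it. Points are samples and bars are group means. All 3 small MAF genes and BACH1 are higher in the 3 acidosis samples than in the other 4, KEAP1 is lower, and NFE2L2 moves least among the genes on the left together with NFE2L1.

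Further regulators came from a wider list of the pathway. The other small MAF genes also rose. MAFF was at 1.22 and 1.26 CPM in control, 1.99 and 1.82 CPM with SRPIN340 and 129, 123 and 115 CPM in acidosis (log2 fold change 6.62, standard error 0.136, adjusted p = 1.10e-09 from edgeR). MAFK was at 13.1 and 14.3 CPM in control and 234, 188 and 207 CPM in acidosis (log2 fold change 3.93, standard error 0.121, adjusted p = 1.12e-08). The genes of the competitor BACH1 (log2 fold change 2.18) and of BACH2 (0.48, turned to -0.10 and not passing with libraries scaled by totals alone) rose. SQSTM1 (0.98), whose p62 protein binds KEAP1 for autophagy, rose as well. NFE2L3 (-1.57), BTRC (-1.48), which encodes an adaptor for KEAP1-independent NRF2 turnover, and NGLY1 (-1.41), the enzyme that deglycosylates NRF1, fell. DDI2 (0.96) and RBX1 (0.30) passed as higher and CUL3 (-0.36) as lower, while GSK3B (0.22) did not pass. With libraries scaled by totals alone these were at 0.39, -0.27, -0.93 and -0.36 in that order. All regulators of this list except MAFF and MAFK were named after their values had been seen. Of the 12 regulators in the wider list, 11 passed, 7 higher and 4 lower, where 66.7% of all tested genes passed, 32.5% higher and 34.2% lower. The regulators' median log2 fold change was 0.39, or -0.185 with totals alone.

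Of the 33 genes, 4 encode inducible stress enzymes, and 3 of these fell in acidosis. NQO1, a quinone reductase often used to report NRF2 activity, was low throughout, at 5.80 and 5.72 CPM in control, 2.87 and 3.23 CPM with SRPIN340 and 2.73, 3.31 and 1.63 CPM in acidosis. All 5 treated samples lay below both controls. The fall was called in acidosis (log2 fold change -1.17, standard error 0.298, adjusted p = 0.00613 from edgeR) and did not pass with SRPIN340 (-0.92, standard error 0.317, adjusted p = 0.173), and the 2 treated groups overlapped (-0.25, adjusted p = 0.487). The log2 fold change of NQO1 in acidosis was under the fold limit without acidosis replicate 3 and with a replicate block, at -0.94 in both.

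SRXN1, sulfiredoxin, reactivates overoxidised peroxiredoxins. It was at 33.6 and 38.5 CPM in control, 47.1 CPM in both SRPIN340 samples and 15.9, 14.6 and 17.0 CPM in acidosis (log2 fold change -1.19, standard error 0.114, adjusted p = 1.09e-05). A gene without a symbol shares 2292 exonic bases with SRXN1 on the same strand and was at a mean of 0.172 CPM in acidosis and 0 in control. HMOX1, heme oxygenase 1, which BACH1 represses, was at 18.3 and 19.2 CPM in control, 23.7 and 23.9 CPM with SRPIN340 and 12.1, 9.27 and 11.3 CPM in acidosis. Its fall passed under the fold limit (log2 fold change -0.78, standard error 0.143, adjusted p = 8.40e-04). SRXN1 and HMOX1 thus had their SRPIN340 samples above control and their acidosis samples below it, and against SRPIN340 both were called lower in acidosis (-1.57 and -1.12). Neither rise with SRPIN340 over control passed (edgeR adjusted p = 0.136 and 0.276). SRPIN340 and control samples did not overlap for 54.1% of all tested genes. OSGIN1, an oxidative stress induced growth inhibitor, was the exception of the set. It held 15 and 30 counts in the control libraries (0.540 and 1.05 CPM), 14 in each SRPIN340 library and 148, 51 and 99 in acidosis (8.79, 4.68 and 8.51 CPM). The rise of 3.20 on the log2 scale (standard error 0.429, adjusted p = 1.08e-04) had the widest error of the 33 genes. OSGIN1 shares 457 exonic bases with MLYCD on the same strand, which was at a mean of 4.67 CPM in control and 4.39 CPM in acidosis.

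Of the 4 glutathione synthesis and recycling genes, 3 passed as lower in acidosis. GCLC and GCLM encode the catalytic and modifier subunits of glutamate-cysteine ligase, the rate-limiting step of glutathione synthesis. GCLM (ENSG00000023909.10, chromosome 1, 93885199 to 93909456) was at 34.4 and 44.2 CPM in control, 35.1 and 38.6 CPM with SRPIN340 and 11, 16.1 and 18.2 CPM in acidosis (log2 fold change -1.39, standard error 0.194, adjusted p = 1.41e-04 from edgeR). GCLC was at 82.7 and 92.4 CPM in control, 81.2 and 94.0 CPM with SRPIN340 and 58.4, 59.1 and 54.6 CPM in acidosis, a smaller fall (-0.61, standard error 0.096, adjusted p = 3.11e-04). The modifier thus lost more than the catalytic subunit, and the ratio of GCLC to GCLM counts was 2.41 and 2.09 in control and 5.30, 3.69 and 2.99 in acidosis. GSR, which reduces oxidised glutathione with NADPH, was at 109 and 98.8 CPM in control, 93.9 and 94.5 CPM with SRPIN340 and 39.8, 40.5 and 48.8 CPM in acidosis (-1.27, standard error 0.103, adjusted p = 3.26e-06). GSS, which adds the final glycine, did not pass, at 36.6 and 40.3 CPM in control and 47.4, 40.1 and 47.9 CPM in acidosis (0.23, adjusted p = 0.0964). With libraries scaled by totals alone GSS turned to -0.34 and passed as lower (edgeR adjusted p = 0.0198).

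Promoter sequence was looked at because the falling and rising genes include ARE targets. RefSeq windows (GRCh38.p14, 250 bases before to 50 after a start) were held for 25 of the 33 genes, 37 windows in all, and were missing for HMOX1, GSR, GSS, TXN2, PRDX1, PRDX6, SOD1 and FTH1. The ARE core TGACNNNGC and the AP-1 motif TGACTCA were searched on both strands, and TGACTCAGC holds both. The core was found in 6 of the 37 windows (16.2%) and in 13.3% of 35116 windows of all genes, and TGACTCA in 2 (5.41%) and 4.95%. The matches below are shown because their genes include falling (GCLM, KEAP1), rising (GSTP1, OSGIN1) and not passing (TXNRD1) genes. Of the 3 TXNRD1 matches 1 is shown, and the match in PGD is not. They read 5′ to 3′ on the gene's strand, with the motif in capitals.
GCLM: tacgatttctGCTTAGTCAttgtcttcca
KEAP1: gcccggctctGCTTAGTCAtggtgacctg
KEAP1: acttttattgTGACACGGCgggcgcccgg
TXNRD1: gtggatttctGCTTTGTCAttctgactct
GSTP1: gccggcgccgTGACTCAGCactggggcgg
OSGIN1: gggcccctgcTGACTCAcgcttatgaa

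The GCLM stretch (chr1:93909446-93909474, minus strand) has its core on the opposite strand, and the motif begins 34 bases before the RefSeq start. The GCLM gene as annotated in GENCODE ends at the motif's base nearest to it, 93909456, and the rest of the motif lies upstream of the gene. The KEAP1 stretches (chr19:10502784-10502812 and chr19:10502807-10502835, minus strand) hold motifs that begin 31 and 54 bases before a RefSeq start and lie in an intron of the canonical transcript. The GCLM and KEAP1 windows share the 13-base run tctGCTTAGTCAt. Runs shared by other pairs of genes were not looked for, so the run is not a mark of falling genes. The TXNRD1 stretch (chr12:104286920-104286948, plus strand) holds a motif that begins 102 bases before a start and lies in an intron of the canonical transcript. The motif of the GSTP1 stretch (chr11:67583736-67583764, plus strand) begins 66 bases before the start, outside the canonical transcript. The OSGIN1 stretch (chr16:83953133-83953159, plus strand) holds TGACTCA without the ARE core, beginning 97 bases before the start. A match in these letters is a description of the window. Matches were thus found in genes that fell, rose or did not pass, and windows outside these 300 bases were not searched.

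Of the 33 genes, 3 encode enzymes that use glutathione, and all 3 rose in acidosis. GPX1, the cytosolic glutathione peroxidase, was at 62.8 and 82.6 CPM in control, 52.7 and 50.8 CPM with SRPIN340 and 173, 151 and 167 CPM in acidosis (log2 fold change 1.17, standard error 0.119, adjusted p = 1.62e-05 from edgeR). It was under the fold limit without control replicate 1 (0.98). On the same strand GPX1, whose canonical transcript has 899 bases, shares 572 exonic bases with a gene without a symbol. That gene was at a mean of 1.58 CPM in control and 0.757 CPM in acidosis. GPX4, which reduces lipid hydroperoxides and guards against ferroptosis, was at 178 and 203 CPM in control, 184 and 178 CPM with SRPIN340 and 456, 444 and 467 CPM in acidosis (1.26, standard error 0.073, adjusted p = 3.69e-07). The pi-class transferase GSTP1 was at 113 and 138 CPM in control, 117 and 110 CPM with SRPIN340 and 297, 260 and 295 CPM in acidosis (1.18, standard error 0.100, adjusted p = 4.61e-06). Scaled by library totals alone, the 3 genes kept a positive log2 fold change of 0.60 to 0.68 and still passed, under the fold limit. The ratio of GPX4 to GSR counts was 1.64 and 2.06 in control, 1.96 and 1.89 with SRPIN340 and 11.4, 11 and 9.56 in acidosis.

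All 6 peroxiredoxins passed as higher in acidosis, although PRDX2 turned to -0.10 and PRDX1 came to 0.03, neither passing, when libraries were scaled by totals alone. Peroxiredoxins remove hydrogen peroxide with a reactive cysteine, and most take their electrons from thioredoxin. PRDX4, the form of the endoplasmic reticulum, was at 143 and 148 CPM in control, 143 and 146 CPM with SRPIN340 and 356, 359 and 381 CPM in acidosis (log2 fold change 1.33, standard error 0.064, adjusted p = 1.32e-07 from edgeR). PRDX6, which works with glutathione, was at 193 and 206 CPM in control, 190 and 198 CPM with SRPIN340 and 502, 455 and 502 CPM in acidosis (1.29, standard error 0.071, adjusted p = 2.93e-07). PRDX3, the mitochondrial form, was at 204 and 208 CPM in control, 192 and 197 CPM with SRPIN340 and 443, 429 and 459 CPM in acidosis (1.11, standard error 0.061, adjusted p = 2.89e-07). In each of these 3 genes the acidosis samples varied little and stood clear of both other groups. The rises of PRDX5 (0.92), PRDX1 (0.61) and PRDX2 (0.48) were under the fold limit. PRDX1, the abundant cytosolic form, was at 347 and 385 CPM in control, 278 and 289 CPM with SRPIN340 and 550, 522 and 598 CPM in acidosis. PRDX1 shares 501 exonic bases with MMACHC on the opposite strand, which was at a mean of 30.2 CPM in control and 10.3 CPM in acidosis.

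The peroxiredoxins together moved against the glutathione synthesis and recycling genes in every acidosis sample. The summed counts of the 6 peroxiredoxins over those of GCLC, GCLM, GSR and GSS gave 4.37 and 4.49 in control, 4.16 and 3.98 with SRPIN340 and 14.6, 13.9 and 14 in acidosis. The ratio of PRDX1 to SRXN1, the peroxiredoxin and its repair enzyme, was 10.3 and 9.99 in control, 5.91 and 6.13 with SRPIN340 and 34.6, 35.9 and 35.1 in acidosis. The 3 groups did not overlap in this ratio, with the SRPIN340 samples below control and the acidosis samples above it. The ratio was not tested, and with SRPIN340 neither gene passed.

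**Figure D3:**
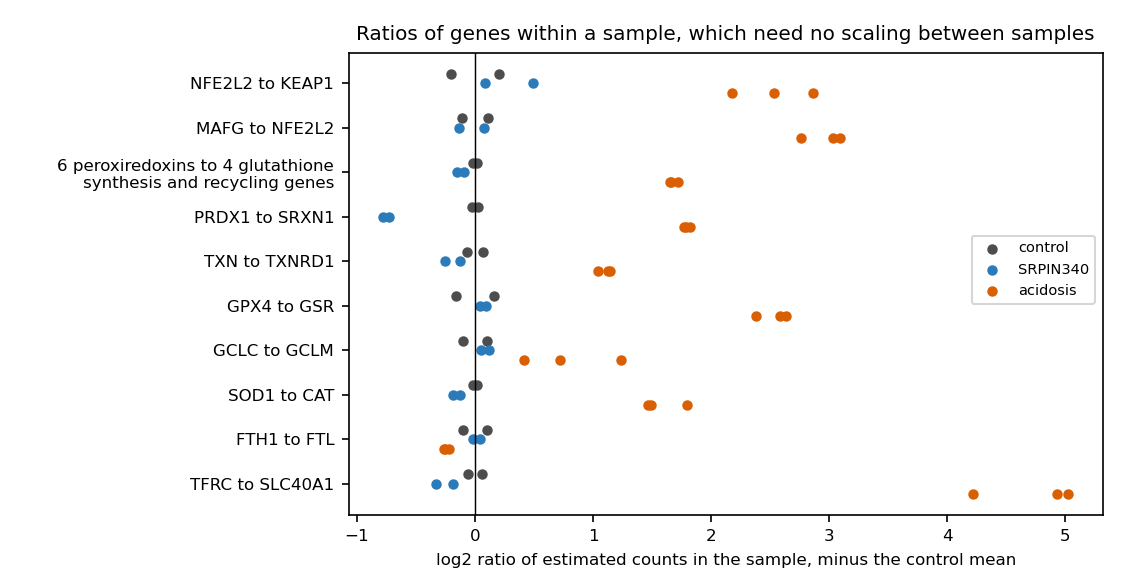
Ratios of estimated counts of genes within a sample, as log2 difference from the control mean (horizontal axis), for each of 10 pairs or sums of genes. Points are samples. The acidosis points lie to the right of both other groups in every ratio except FTH1 to FTL, where they lie slightly to the left.

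Thioredoxin rose and its reductases did not pass. TXN, the cytosolic thioredoxin that reduces peroxiredoxins, was at 90.4 and 95.3 CPM in control, 88.1 and 92.7 CPM with SRPIN340 and 196, 188 and 216 CPM in acidosis (log2 fold change 1.11, standard error 0.082, adjusted p = 1.82e-06 from edgeR). TXN2, its mitochondrial counterpart, had a log2 change of 0.33 (adjusted p = 0.0111) and was at -0.24 with libraries scaled by totals alone (adjusted p = 0.0431). With a replicate block TXN2 did not pass (0.305, adjusted p = 0.0543), and without control replicate 1 it was at 0.23. TXNRD1, the cytosolic selenium reductase and an NRF2 target, stayed at 147 and 141 CPM in control and 139, 142 and 152 CPM in acidosis, with overlapping groups (0.00, standard error 0.070, adjusted p = 0.975). TXNRD2 of mitochondria was at 19.2 and 22 CPM in control and 17.8, 19.0 and 21.2 CPM in acidosis (-0.09, adjusted p = 0.572). With libraries scaled by totals alone TXNRD1 and TXNRD2 both passed as lower, at -0.57 and -0.67. TXNRD3, a reductase of the wider list named after its values had been seen, was called lower in acidosis. Its log2 fold change was -1.11 (edgeR adjusted p = 4.21e-04), or -1.69 with totals alone. The ratio of TXN to TXNRD1 was 0.616 and 0.674 in control and 1.41, 1.33 and 1.42 in acidosis.

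The genes of superoxide dismutases and catalase moved in opposite directions. SOD1, the copper-zinc dismutase of the cytosol, was at 282 and 275 CPM in control, 258 and 245 CPM with SRPIN340 and 563, 565 and 585 CPM in acidosis (log2 fold change 1.04, standard error 0.059, adjusted p = 3.41e-07 from edgeR), close to the fold limit and just under it without control replicate 2. SOD2, the manganese dismutase of mitochondria, was at 159 and 146 CPM in control, 165 and 160 CPM with SRPIN340 and 374, 369 and 381 CPM in acidosis (1.30, standard error 0.065, adjusted p = 1.66e-07). Catalase, which removes the hydrogen peroxide that dismutases make, was at 32.2 and 31.9 CPM in control, 32.3 and 32.0 CPM with SRPIN340 and 23.5, 23.2 and 19.3 CPM in acidosis. Its gene CAT fell by 0.54 on the log2 scale (standard error 0.116, adjusted p = 0.00235). With libraries scaled by totals alone SOD1 (0.46) and SOD2 (0.72) were under the fold limit and still passed. The ratio of SOD1 to CAT counts was 8.78 and 8.61 in control and 24.0, 24.4 and 30.2 in acidosis. SOD2 shares exonic bases with WTAP and ACAT2 on the opposite strand, 437 and 133 of them, and their means went from 142 to 133 CPM and from 238 to 77.1 CPM.

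The pentose phosphate pathway supplies NADPH for both recycling systems. TKT, transketolase of its non-oxidative arm, was at 154 and 168 CPM in control, 148 and 140 CPM with SRPIN340 and 343, 321 and 374 CPM in acidosis (log2 fold change 1.11, standard error 0.082, adjusted p = 1.90e-06 from edgeR). TALDO1, transaldolase of the same arm, rose by 0.77 (standard error 0.073, adjusted p = 1.01e-05). PGD, the second NADPH-forming step of the oxidative arm, was at 237 and 230 CPM in control, 187 in both SRPIN340 samples and 216, 207 and 191 CPM in acidosis. Its small fall in acidosis (-0.19, adjusted p = 0.0350) did not pass in 6 of 7 fits that each left out 1 sample. Both genes of the non-oxidative arm were thus higher and the oxidative enzyme was not.

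The ferritin chains store iron in a form that cannot generate radicals. FTH1 (ENSG00000167996.16, chromosome 11, 61959718 to 61967634), the ferroxidase chain, was at 468 and 484 CPM in control, 522 and 516 CPM with SRPIN340 and 1390, 1340 and 1410 CPM in acidosis (log2 fold change 1.54, standard error 0.056, adjusted p = 2.60e-08 from edgeR). FTL (ENSG00000087086.15, chromosome 19, 48965309 to 48966879), the light chain, was at 240 and 285 CPM in control, 289 and 275 CPM with SRPIN340 and 916, 856 and 924 CPM in acidosis (1.78, standard error 0.084, adjusted p = 1.15e-07). Both chains rose together, and the ratio of FTH1 to FTL counts went from 1.95 and 1.70 to 1.52, 1.56 and 1.53. GENCODE release 44 names 25 pseudogenes after FTH1 and 16 after FTL, so reads of near-identical copies make their levels uncertain. The same holds for TXN with 7, PRDX2 and PRDX3 with 4 each, SOD1 with 3 and GPX1 with 2. FTH1 also shares 1267 exonic bases with BEST1 on the opposite strand, which was at a mean of 1.94 CPM in control and 6.58 CPM in acidosis. Whether reads were counted by strand is not given in the sources used here, and the part of these copies and overlaps in the results was not tested.

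**Figure D4:**
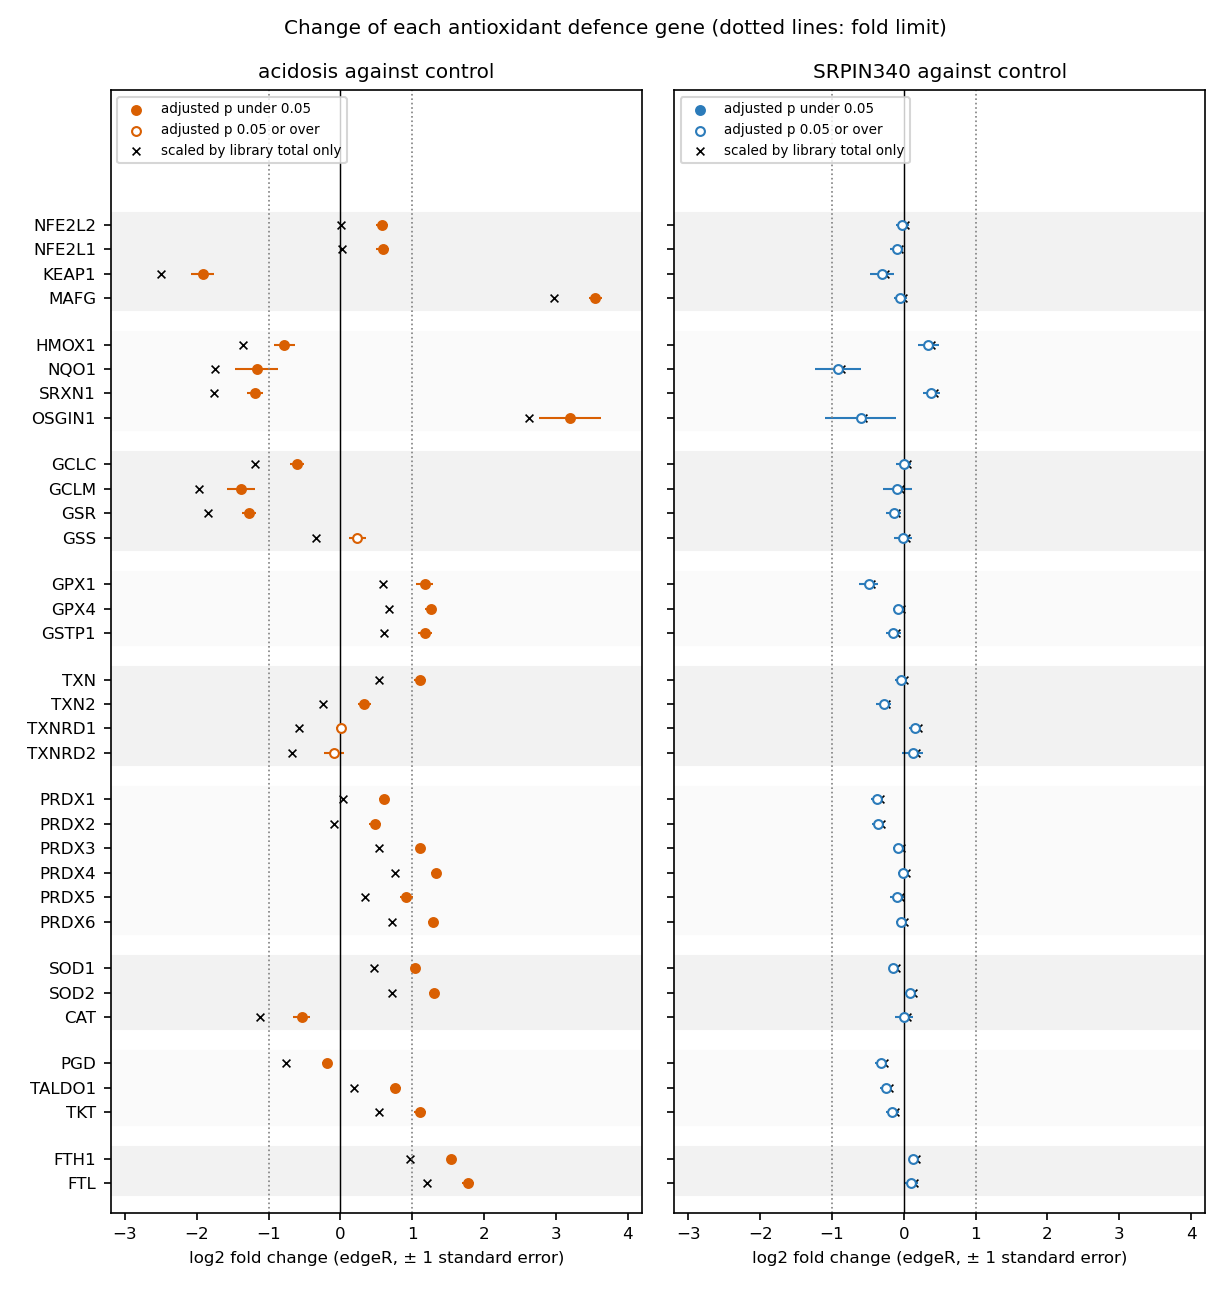
Log2 fold change of each gene from edgeR with 1 standard error, for acidosis against control (left panel) and SRPIN340 against control (right panel). Filled circles passed the adjusted p limit, open circles did not, crosses give the value with libraries scaled by totals alone, and dotted lines mark the fold limit. All circles of the SRPIN340 panel are open, and in the acidosis panel each cross lies to the left of its circle by about the shift of the typical gene.

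With SRPIN340 0 of the 33 genes were called and 0 passed the adjusted p limit in edgeR, where 0.323% of all tested genes were called (0.128% higher, 0.195% lower) and 2.30% passed (0.767% higher, 1.53% lower). At an unadjusted p under 0.05 there were 10 (30.3%), against 17.6% of all tested genes. The groups did not overlap for 19 of the 33, against 54.1% of all tested genes. The genes closest to passing were lower with the inhibitor. PRDX1 (log2 fold change -0.37, standard error 0.082, adjusted p = 0.0530), PGD (-0.32, standard error 0.076, adjusted p = 0.0635), PRDX2 (-0.36, standard error 0.086, adjusted p = 0.0649) and GPX1 (-0.49, standard error 0.128, adjusted p = 0.0843) each had both SRPIN340 samples below both control samples. DESeq2 passed these 4 genes under the fold limit, and over 13 alternatives the adjusted p of PRDX1 ran from 0.00191 to 0.314 and passed in 4. It ran from 0.00353 to 0.423 for PRDX2 and 0.00417 to 0.371 for PGD, each passing in 2, and from 0.00629 to 0.435 for GPX1, passing in 1. SRXN1 (0.38, standard error 0.120, adjusted p = 0.136) and HMOX1 (0.34, standard error 0.150, adjusted p = 0.276) had both inhibitor samples above control. The median over the 33 genes was -0.08 and that of all tested genes 0.00.

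Tested directly, acidosis differed from SRPIN340 in 21 of the 33 genes, 16 higher and 5 lower (with libraries scaled by totals alone 11, 4 higher and 7 lower). Of all tested genes 34.6% were called, 14.9% higher and 19.7% lower. Without the fold limit 28 passed, 21 higher and 7 lower, where 67.8% of all genes did, 32.8% higher and 35% lower. The groups did not overlap for 30 of the 33, against 78.3% of all tested genes. Since the same acidosis samples enter this comparison and the one with control, the values are not independent. PRDX5, the peroxiredoxin of mitochondria and peroxisomes, was at 71.0 and 75.7 CPM in control, 73.8 and 63.5 CPM with SRPIN340 and 136, 135 and 146 CPM in acidosis (log2 fold change against SRPIN340 1.01, standard error 0.091, adjusted p = 6.55e-06 from edgeR). TALDO1 was at 99.8 and 111 CPM in control, 88.4 and 89.0 CPM with SRPIN340 and 182, 175 and 180 CPM in acidosis (1.01, standard error 0.074, adjusted p = 1.63e-06). Both were close to the fold limit, and the call held in 6 of 13 alternatives for PRDX5 and 9 of 13 for TALDO1, with the lowest value 0.40 for both when libraries were scaled by totals alone. GPX1 was at 1.66 against SRPIN340 (standard error 0.123, adjusted p = 1.78e-06) and 1.17 against control. NQO1, GSS, TXNRD1, TXNRD2 and PGD did not pass, and with libraries scaled by totals alone all 5 passed as lower (adjusted p = 0.0287, 0.0129, 4.72e-06, 3.59e-04 and 1.58e-04).

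Transcript length differed between the genes that rose and those that fell. The canonical transcripts of the 21 rising genes had a median of 1199 bases, those of the 9 falling genes 2528 bases and those of all tested genes 3387.5 bases. All 10 of the 33 genes under 1 kb passed as higher in acidosis, and so did 50.7% of all 823 tested genes of that length, whose median log2 fold change was 0.55. Among genes over 4 kb that median was -0.11. Of the 10 members of 2 to 4 kb, 7 passed as lower and 2 as higher, where 35% and 31.3% of all tested genes of that length did. Among members longer than 4 kb, MAFG, SOD2 and NFE2L1 rose and GCLM fell. HMOX1 is shorter than 2 kb and fell. The part of length in the results was not tested.

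**Figure D5:**
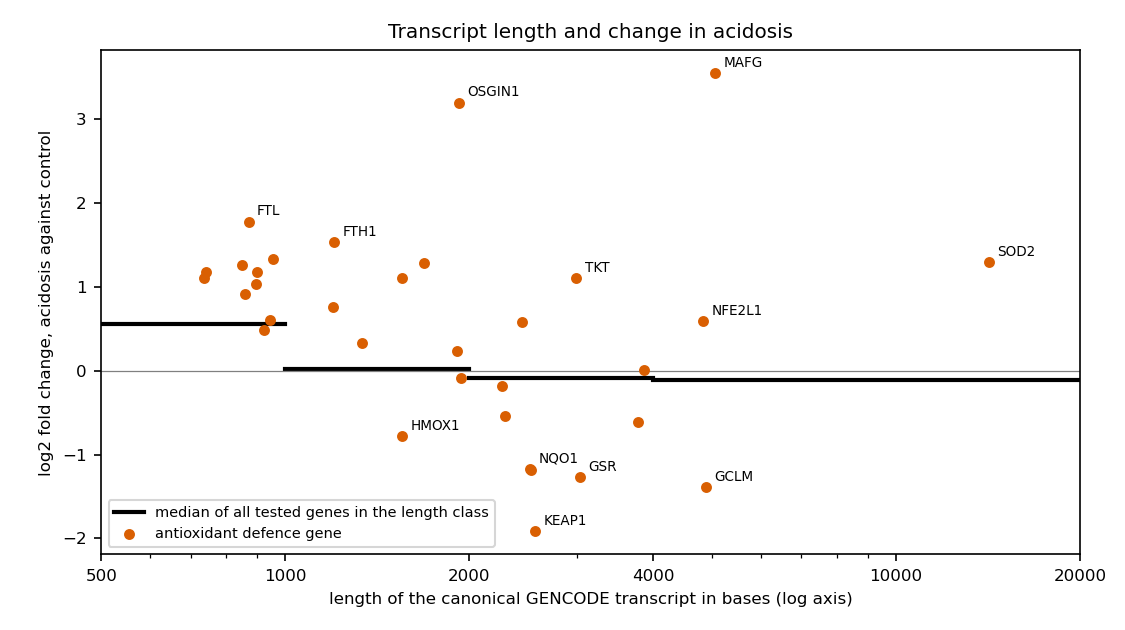
Log2 fold change in acidosis against control (vertical axis) of the 33 genes by the length of their canonical GENCODE transcript in bases (horizontal log axis). Points are genes, and black lines are the medians of all tested genes in 4 length classes. The median line is highest, at 0.55, for transcripts under 1 kb, where all 10 points lie above 0, and MAFG and OSGIN1 stand above the lines of longer classes.

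The wider pathway was described with 101 further genes, of which 93 were tested. In acidosis 36 were called, 13 higher and 23 lower (46 with libraries scaled by totals alone, 6 higher and 40 lower), and 75 passed, 32 higher and 43 lower. These are 38.7% and 80.6% of the 93, against 33.5% and 66.7% of all tested genes. Their median log2 fold change was -0.25, or -0.83 with totals alone. With SRPIN340 0 were called or passed in edgeR, and 14 (15.1%) were under an unadjusted p of 0.05, against 17.6% of all tested genes. Against SRPIN340, 39 were called in acidosis, 15 higher and 24 lower (51 with totals alone, 8 higher and 43 lower), which is 41.9% of the 93 against 34.6% of all tested genes. Besides MAFF and MAFK, the called gene with the largest rise was SLC3A2, the heavy chain of the cystine and neutral amino acid exchangers, at 62.9 and 72.0 CPM in control and 429, 360 and 449 CPM in acidosis (log2 fold change 2.61, standard error 0.111, adjusted p = 6.07e-08 from edgeR). Its partner SLC7A11, the cystine transporter subunit that supplies glutathione synthesis, was at 18.6 and 14.4 CPM in control, 27.2 and 31.4 CPM with SRPIN340 and 6.77, 8.63 and 4.90 CPM in acidosis (-1.29, adjusted p = 4.75e-04), and was named after its values had been seen.

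The largest falls of the wider list were in GLRX, AKR1C3 and CBR3. GLRX, the cytosolic glutaredoxin that reduces glutathionylated proteins, was at 15.1 and 21.1 CPM in control, 18 and 20.4 CPM with SRPIN340 and 1.84, 1.01 and 1.38 CPM in acidosis (log2 fold change -3.64, standard error 0.246, adjusted p = 1.02e-06 from edgeR). CBR3, a carbonyl reductase, was at 13.4 and 14.1 CPM in control and 1.19, 0.734 and 1.55 CPM in acidosis (-3.55, standard error 0.233, adjusted p = 8.36e-07). In the acidosis libraries GLRX held only 31, 11 and 16 counts and CBR3 20, 8 and 18, which limits the size of both falls. AKR1C3, an aldo-keto reductase, held 111 counts over both control libraries and 6 over the 3 acidosis libraries, a 12.9-fold lower rate with a 95% interval of 5.76 to 36.0 that covers counting error only and leaves out the spread between samples. Its near-identical relatives make its own value uncertain. Over all tested genes 32.5% passed as higher and 34.2% as lower in acidosis. Of the 16 tested genes for quinone and carbonyl reduction and export, 8 passed as lower and 4 as higher (median log2 fold change -0.54, or -1.11 with totals alone). Of the 14 tested for heme and iron, 9 passed as lower and 2 as higher (median -0.38, or -0.96 with totals alone). Of 11 genes for NADPH supply, 5 passed as higher and 6 as lower (median -0.43, or -1.005 with totals alone), and of 26 for glutathione supply and use, 9 and 10 (median -0.17, or -0.75 with totals alone). Of 14 other thioredoxin and repair genes, 5 passed as higher and 6 as lower (median -0.29, or -0.87 with totals alone).

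Iron handling genes outside the ferritins were named after their values had been seen. TFRC, the transferrin receptor that takes up iron, was at 132 CPM in both control samples, 124 and 137 CPM with SRPIN340 and 535, 564 and 580 CPM in acidosis (log2 fold change 2.08, standard error 0.073, adjusted p = 2.14e-08 from edgeR). SLC40A1, ferroportin, the iron exporter, was at 19.7 and 18.2 CPM in control, 22.3 CPM in both SRPIN340 samples and 2.32, 4.32 and 2.75 CPM in acidosis (-2.63, standard error 0.217, adjusted p = 3.84e-06). SLC11A2, another iron transporter of the same list, was at -0.25 (adjusted p = 0.0276). IDH1, a cytosolic NADPH source that was also named after its values had been seen and had the largest fall of the NADPH list, was at 119 and 111 CPM in control and 12.5, 15.3 and 13.2 CPM in acidosis (-3.08, standard error 0.101, adjusted p = 1.65e-08).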

How the data were processed

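Poly(A) RNA of 7 HEK-293 samples was sequenced. According to the paper's methods and the submitters' processing notes, the authors trimmed reads with Trimmomatic 0.39 and Trim Galore 0.6.6, ran Salmon 1.5.1 for transcripts and used tximport for the step to genes. What they deposited are estimated counts, 1 value for each gene and sample, without normalization between samples. How tximport scaled them, and how the sequencing replicates of each repeat were joined, is not given in the sources used here.

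Here the estimated counts, after rounding, entered edgeR 4.0.16 under R 4.3.3 (TMM, filterByExpr, quasi-likelihood test, all 7 samples in 1 fit, Benjamini-Hochberg adjustment over all 14863 tested genes). The limits for a call were 0.05 for the adjusted p and 1 for the size of the log2 fold change. The standard error was taken from the test statistic. The script was tested on simulated data. Of 19978 identifiers, 19977 matched GENCODE release 44. Promoter sequences are from RefSeq (GRCh38.p14).

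The 33 genes, the wider list and the cell type markers were chosen with earlier results of these data known. Every member is named. Members called in any comparison and regulators were to be given sample by sample, and of the wider list the 3 largest called rises and falls in acidosis. Alternatives were RLE size factors, library totals alone, DESeq2 1.42.0, no filter, the 2 compared groups alone, a replicate block, no fold limit and each sample left out. Figures were drawn with matplotlib 3.10.9.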

Additional observations from a re-analysis of the deposited data

How the results depend on the processing

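Library totals in place of TMM moved the count of called members in acidosis from 19 to 11 (3 higher, 8 lower) and against SRPIN340 from 21 to 11 (4 higher, 7 lower). Without the fold limit 30 members were called in acidosis, and 75 of the wider list in acidosis and 75 against SRPIN340. With 1 sample left out, 18 to 19 members were called in acidosis, 19 to 22 against SRPIN340 and 0 with SRPIN340. DESeq2 called 19, 21 and 0 members and 34, 39 and 0 of the wider list.

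The correlations of deviations of same-numbered samples were -0.111 and -0.170 between control and acidosis and -0.0405 between control and SRPIN340. Between SRPIN340 and acidosis they were 0.0792 and 0.0514. In a group of 2 samples the deviations mirror each other, so these values cannot decide whether replicate numbers pair the samples. With a replicate block 18 members were called in acidosis (NQO1 was lost, at -0.94), 20 against SRPIN340 and 0 with SRPIN340, and 35, 39 and 0 of the wider list.

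Some small values changed sign. With library totals alone in acidosis GSS was at -0.342, TXN2 at -0.241, TXNRD1 at -0.572 and PRDX2 at -0.096, and against SRPIN340 NFE2L2 was at -0.017, GSS at -0.372, TXN2 at 0.000 and PGD at -0.484. TXNRD1 in acidosis was at -0.026 with no filter, -0.022 with the 2 groups alone, -0.038 with the replicate block and -0.043 to 0.031 with 1 sample left out. With SRPIN340 and library totals NFE2L2 was at 0.022, GSS at 0.030, TXN at 0.001, PRDX4 at 0.028 and PRDX6 at 0.002. GCLC was at -0.006 with RLE size factors, -0.004 with DESeq2, -0.002 with the 2 groups alone and 0.000 with the replicate block, and CAT at -0.001 with RLE. With 1 sample left out, values with SRPIN340 spanned -0.097 to 0.063 (NFE2L2), -0.109 to 0.104 (GCLC), -0.012 to 0.235 (FTL), -0.263 to 0.097 (GCLM), -0.092 to 0.069 (GSS), -0.032 to 0.008 (PRDX4), -0.084 to 0.008 (PRDX6), -0.168 to 0.019 (GPX4), -0.002 to 0.012 (CAT), -0.103 to 0.010 (MAFG) and -0.208 to 0.010 (PRDX5). None of these members passed the test with SRPIN340 in any of these fits. The causes were not tested. Low counts limit OSGIN1 in the control and SRPIN340 libraries and NQO1, GLRX, CBR3 and AKR1C3 in the acidosis libraries.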
